A study of Mus musculus with 12 samples.

Results

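The cytokines of the interleukin-6 (IL-6) family, their receptors and the suppressor of cytokine signaling (SOCS) genes that close the pathway were followed in whole lung of A/J mice, an inbred strain with reactive airways. Members were all probe sets annotated with 1 symbol among Il6, Il6ra, Il6st, Osm, Osmr, Lif, Stat3, Socs1, Socs3 and Cish, which gave 22 of the 45101 probe sets on the array and covered all 10 genes. Lungs of male mice aged 8 to 10 weeks were compared in 4 groups of 3 arrays on day 4 after PM or its vehicle. PBS/PBS mice received only phosphate-buffered saline (PBS). In OVA/PBS mice, a model of allergic asthma, ovalbumin (OVA) was injected into the peritoneum at 0.4 mg/kg on day 0 of the protocol and given through the trachea at 30 mg/kg on day 14. PBS/PM mice were naive animals that aspirated 50 µl of Baltimore particulate matter (PM) at 10 mg/ml in PBS, and OVA/PM mice received both exposures. The methods state that RNA was prepared from 3 animals in each group, and the time point is a single one.

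All values are log2 intensities, which the authors computed with GCRMA, a method that corrects each probe for background and normalizes the arrays together. A level of 4.93, the median of all values, stood in for detection, and only probe sets that reached it in every array of 1 or both groups entered a comparison. Changes are differences of mean log2 intensity from limma fits over all such probe sets, with Benjamini-Hochberg adjustment and a threshold of 0.05. Array medians lay between 4.84 and 5.03, and the surfactant gene Sftpc and the club cell gene Scgb1a1, which mark lung, read 15.40 to 15.71 and 15.85 to 16.11 over the 12 arrays. In OVA/PM replicate 3 a probe set of the spiked bioB control read 8.05, against at most 5.37 in the other 11 arrays.

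Doubt attaches to the labels, and it bears on every pairwise comparison below that uses the OVA/PBS or PBS/PM arrays. An exchange of those names would leave OVA/PM against PBS/PBS and the interaction unchanged. Of 14 probe sets that appear in the publication with a change for OVA and one for PM, 12 had unequal changes there, and in all 12 the arrays as labelled stood in the opposite order. The study described IL-6 protein in lavage fluid as a response to PM, whereas mean Il6 RNA was higher in the arrays labelled OVA than in those labelled PM, a difference that did not pass. The study also listed more genes changed by PM than by OVA, with stricter limits for PM. In the arrays as labelled, 4326 probe sets passed in OVA/PBS and 16 in PBS/PM against PBS/PBS. By contrast, the study's lavage macrophage counts rose with OVA and not with PM, and whole-lung macrophage markers were higher in the arrays labelled OVA. Clca1, a goblet cell gene, averaged 2.39 ± 0.01 (log2, SD, n = 3) in PBS/PBS, 8.37 ± 0.30 in OVA/PBS and 14.29 ± 0.51 in PBS/PM. The study listed the same probe set, as Clca3, with a far larger fold change for OVA than for PM. The macrophage elastase gene Mmp12 averaged 12.82 ± 0.11 in OVA/PBS and 7.63 ± 0.36 in PBS/PM. The labels were kept, so OVA/PBS and PBS/PM mean the arrays that carry those labels.

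Cytokines of the IL-6 family signal through gp130, the shared receptor chain encoded by Il6st. IL-6 first binds its own receptor (Il6ra), while oncostatin M (Osm) and leukemia inhibitory factor (Lif) use gp130 with Osmr or Lifr. JAK kinases on the receptors then phosphorylate STAT3, which enters the nucleus and switches on target genes. One target is Socs3, whose protein docks on gp130 and stops the signal, and Cish and Socs1 act the same way mainly behind STAT5 and interferon receptors. In inflamed airways IL-6 comes from macrophages, epithelium and fibroblasts.

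The promoters of 3 members are shown because Il6 and Socs3 passed the test in the same 2 comparisons. Cish, a related feedback gene, passed in none by limma with the settings above. In OVA/PM against PBS/PM it passed under some other settings, which are given below. RefSeq sequences of GRCm38.p6 were matched for 9 of the 10 members, as windows of 300 bases from 250 before to 50 after the start of the gene. The search covered both strands for STAT (TTCNNNGAA), NF-kB (GGGANTTTCC), C/EBP (TTGNNCAA) and AP-1 (TGANTCA) motifs, and no matches overlapped in the windows shown. Capitals mark the matches.
Il6 (chr5:30012864-30013163, plus strand): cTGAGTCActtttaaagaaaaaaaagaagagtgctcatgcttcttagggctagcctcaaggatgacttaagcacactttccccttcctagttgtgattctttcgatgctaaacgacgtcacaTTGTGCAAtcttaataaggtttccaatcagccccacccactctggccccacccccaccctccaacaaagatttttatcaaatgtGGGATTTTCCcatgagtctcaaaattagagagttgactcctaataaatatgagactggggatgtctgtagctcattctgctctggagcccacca
Socs3 (chr11:117969317-117969616, minus strand): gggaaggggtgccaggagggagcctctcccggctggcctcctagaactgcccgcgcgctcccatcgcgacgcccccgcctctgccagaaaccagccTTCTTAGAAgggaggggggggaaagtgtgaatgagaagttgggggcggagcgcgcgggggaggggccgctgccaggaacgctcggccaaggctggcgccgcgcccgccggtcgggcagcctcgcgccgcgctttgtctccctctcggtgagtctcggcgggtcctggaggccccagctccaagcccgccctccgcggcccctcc
Cish (chr9:107296409-107296708, plus strand): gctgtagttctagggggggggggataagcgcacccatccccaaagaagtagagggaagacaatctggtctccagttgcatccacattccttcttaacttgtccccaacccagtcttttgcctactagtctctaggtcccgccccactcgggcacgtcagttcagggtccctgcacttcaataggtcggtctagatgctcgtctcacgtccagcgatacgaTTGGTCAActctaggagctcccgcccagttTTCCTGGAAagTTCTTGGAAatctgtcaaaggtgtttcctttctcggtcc

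In the Il6 window the AP-1 match began at -249, the C/EBP match at -128 and the NF-kB match at -44, counted from the gene's start, and no STAT match was present. The Socs3 window held 1 STAT match, at -154, and the Cish window held 2, at 1 and 12, with a C/EBP match at -30. Guanine and cytosine made up 73.3% of the Socs3 window, 53.3% of the Cish window and 44.0% of the Il6 window. Among the 32851 mouse promoters of the same length, 8.3% held the STAT motif, 0.411% the NF-kB motif, 6.4% the C/EBP motif and 7.81% the AP-1 motif. Osmr and Lif held an AP-1 match each, at 4 and -228, and the windows of Il6ra, Il6st, Stat3 and Socs1 held none of the motifs.

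Il6, Osm and Socs3 RNA was higher in the lungs of OVA/PM mice than in PBS/PBS mice, and probe sets of the receptor genes Il6st and Il6ra were lower. Of the 22 member probe sets, 17 in 8 genes were tested in this comparison, and 8 in 5 genes passed, 5 higher and 3 lower. That was 47.1% of those tested, against 21.7% of all probe sets in the same fit, of which 10.9% were higher and 10.9% lower. The rises were 1 probe set of Il6, 1 of Osm and all 3 of Socs3, and the falls were 2 of the 4 probe sets of Il6st and 1 of the 2 of Il6ra. Over the 17 the median change was 0.26, against -0.03 over all probe sets. Osm and Il6 entered this fit only through the OVA/PM arrays, where they were high, so the counts are a description and not a test of the family. In bulk lung, fewer or more cells of a type and less or more RNA per cell cannot be told apart.

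Il6 encodes the founding cytokine of the family. Its probe set read 3.92, 5.8 and 4.21 in the PBS/PBS arrays, 9.46, 5.64 and 8.04 in OVA/PBS, 6.56, 4.81 and 4.17 in PBS/PM, and 8.87, 8.76 and 8.69 in OVA/PM. All OVA/PM arrays lay above all PBS/PBS and PBS/PM arrays, while OVA/PBS replicate 2 fell among the controls and the PBS/PM arrays overlapped them. With each control array taken at no less than the level, which 1 of the 3 reached, the rise in OVA/PM was at least 11.7-fold (fitted log2 difference 4.13, SE 0.47, adjusted p = 0.00303 from limma). The OVA/PBS increase of 3.07 (SE 1.02) did not pass (adjusted p = 0.0808 from limma). In PBS/PM, where only 1 array reached the level, Il6 was not tested against PBS/PBS, and its mean of 5.18 ± 1.24 (SD, n = 3) stood beside 4.64 ± 1.01 in PBS/PBS.

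Osm encodes oncostatin M, a product of macrophages, neutrophils and T cells. It read 3.20, 3.41 and 3.85 in PBS/PBS, 6.24, 4.63 and 5.53 in OVA/PBS, 3.92, 6.16 and 3.72 in PBS/PM, and 5.59, 6.07 and 5.44 in OVA/PM. Every PBS/PBS array lay under the level of 4.93, every OVA/PM array above it, and PBS/PM replicate 2 stood with the OVA/PM arrays, away from the other two of its group. Measured against the level, the OVA/PM mean was at least 1.70-fold up on PBS/PBS (log2 change 2.21, SE 0.23, adjusted p = 0.00213 from limma). OVA/PBS was not tested because replicate 2 missed the level, although all 3 of its arrays lay above all controls.

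Lif, whose product acts through gp130 and Lifr, stayed near the level. The leading probe set, the one with the highest mean, read 3.90, 4.21 and 4.06 in PBS/PBS, 5.67, 4.42 and 4.82 in OVA/PBS, 4.81, 5.30 and 4.66 in PBS/PM, and 5.75, 4.90 and 4.81 in OVA/PM. The PBS/PBS arrays were the lowest of the 12, but no group had all 3 arrays above the level, so no test was made. The other Lif probe set read between 2.48 and 2.60 throughout.

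**Figure D1:**
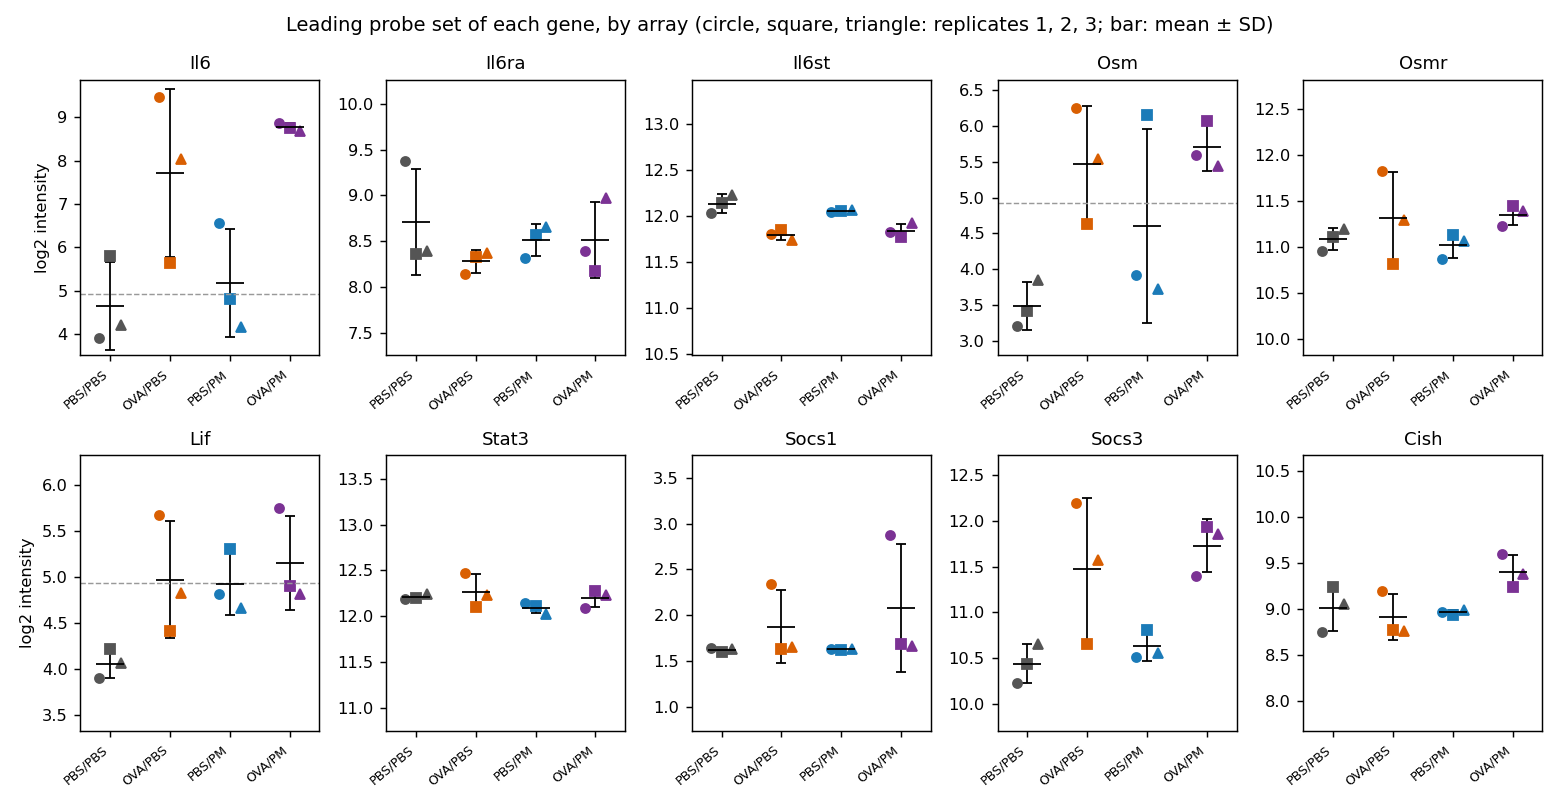
Log2 intensity of the leading probe set of each gene (vertical axes, at least 3 log2 units high, which differ between panels) in the 3 arrays of each group, with the group mean and SD as bars and the level of 4.93 as a dashed line where it falls in range. Il6 lay between 8.69 and 8.87 in OVA/PM and spread from 5.64 to 9.46 in OVA/PBS.

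Differences in the receptor genes were smaller, and those that passed were all downward. Il6st, the gp130 gene, read 12.03, 12.14 and 12.23 in PBS/PBS, 11.80, 11.84 and 11.74 in OVA/PBS, 12.04, 12.05 and 12.06 in PBS/PM, and 11.83, 11.77 and 11.92 in OVA/PM by its leading probe set. The OVA/PBS and OVA/PM arrays all lay below the PBS/PBS and PBS/PM arrays. The difference passed in OVA/PBS (a log2 difference that fell by 0.34, SE 0.09, adjusted p = 0.043 from limma) and missed in OVA/PM (fell by 0.29, SE 0.10, adjusted p = 0.0742 from limma).

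The other probe sets of Il6st, except 1437303_at, were also lower in OVA/PBS and OVA/PM, but unlike the leading one they were lower in PBS/PM too. Probe set 1460295_s_at fell by 0.45 (SE 0.10) in OVA/PBS and by 0.62 (SE 0.14) in OVA/PM, with adjusted p = 0.0303 and 0.028 from limma. The probe set 1421239_at fell by 1.16 (SE 0.29, adjusted p = 0.0341 from limma) in OVA/PM, and its difference of -0.62 in OVA/PBS did not pass (adjusted p = 0.0515 from limma). In PBS/PM, 1460295_s_at lay 0.38 and 1421239_at 0.91 below PBS/PBS, with arrays that did not overlap. Neither of these passed (adjusted p = 0.516 and 0.577 from limma). By contrast, 1437303_at differed by -0.09 in OVA/PBS and 0.07 in OVA/PM, with overlapping arrays. The falls were small and rested on few arrays: leaving out 1 array ended the call in OVA/PBS in 6 of 6 cases for the leading probe set and in 5 of 6 for 1460295_s_at, where the adjusted p reached 0.138 and 0.107 from limma. In OVA/PM the 2 calls were lost in 5 of 6 cases for 1460295_s_at and in 4 of 6 for 1421239_at, with values up to 0.1 and 0.112.

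Il6ra, the gene of the IL-6 receptor chain, gave 2 readings. By the leading probe set it read 9.38, 8.37 and 8.40 in PBS/PBS and 8.40, 8.18 and 8.97 in OVA/PM, which overlapped (difference -0.20, SE 0.33, adjusted p = 0.698 from limma). The second, 1422270_a_at, read 6.72, 6.35 and 6.09 in PBS/PBS, 5.88, 6.01 and 5.91 in OVA/PBS, 5.87, 5.78 and 5.90 in PBS/PM, and 5.0, 5.91 and 5.24 in OVA/PM. All exposed arrays lay below all PBS/PBS arrays on this probe set. Only the OVA/PM difference passed, 2.0-fold lower (difference in log2 -1.0, SE 0.27, adjusted p = 0.0447 from limma), and it was lost in 5 of 6 cases with 1 array left out, at up to 0.122. Probe sets with the suffix _s_at, _x_at or _a_at can share probes with other transcripts or with variants of the gene.

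Osmr, which pairs with gp130 to receive oncostatin M, read 10.95, 11.10 and 11.20 in PBS/PBS, 11.82, 10.82 and 11.29 in OVA/PBS, 10.87, 11.12 and 11.07 in PBS/PM, and 11.22, 11.44 and 11.39 in OVA/PM. The OVA/PM arrays were above the controls by a narrow margin, a difference of 0.26 (SE 0.11) that did not pass (adjusted p = 0.13 from limma). Its second probe set, 1418675_at, read 7.73, 7.86 and 7.79 in PBS/PBS and 7.23, 7.33 and 7.11 in PBS/PM. Those PBS/PM arrays lay below the controls by 0.57 (SE 0.09), the smallest p of any member in that comparison, and the difference did not pass (adjusted p = 0.176 from limma). The last probe set stayed under the level, between 2.48 and 2.64.

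Stat3, the transcription factor that relays the signal, kept a high and even level. Its leading probe set averaged 12.21 ± 0.03 (SD, n = 3) in PBS/PBS, 12.27 ± 0.19 in OVA/PBS, 12.09 ± 0.06 in PBS/PM and 12.20 ± 0.10 in OVA/PM. The OVA/PM difference was -0.01 (SE 0.09), and all groups overlapped PBS/PBS except PBS/PM, which lay 0.12 below PBS/PBS without passing (adjusted p = 0.713 from limma). A second probe set, 1460700_at, was 0.35 higher in OVA/PM (SE 0.11, adjusted p = 0.07 from limma), with arrays that did not overlap. The third, 1459961_a_at, averaged 7.72 in PBS/PBS, 7.41 in OVA/PBS, 7.68 in PBS/PM and 7.98 in OVA/PM and passed in no comparison, and 1424272_at stayed under the level, with group means from 3.14 to 3.28.

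Socs3 encodes the feedback inhibitor that docks on gp130. Its leading probe set read 10.23, 10.44 and 10.66 in PBS/PBS, 12.19, 10.66 and 11.58 in OVA/PBS, 10.52, 10.81 and 10.56 in PBS/PM, and 11.40, 11.93 and 11.85 in OVA/PM. OVA/PM lay above PBS/PBS and PBS/PM in every array, whereas the lowest OVA/PBS array and the highest control array both read 10.66. The rise in OVA/PM was 2.44-fold (log2 difference 1.29, SE 0.18, adjusted p = 0.00611 from limma). The probe sets 1456212_x_at and 1416576_at rose by 1.33 and 1.09, with adjusted p = 0.0113 and 0.0208 from limma, and the last of them lost the call in 3 of 6 cases with 1 array left out. In OVA/PBS the leading probe set was 1.03 higher (SE 0.38) and did not pass (adjusted p = 0.101 from limma), and in PBS/PM it was 0.19 higher (SE 0.14, adjusted p = 0.757 from limma).

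Cish, a SOCS family gene induced mainly through STAT5, followed another course. It read 8.74, 9.24 and 9.05 in PBS/PBS, 9.20, 8.77 and 8.76 in OVA/PBS, 8.97, 8.93 and 8.99 in PBS/PM, and 9.60, 9.24 and 9.38 in OVA/PM. OVA/PBS and PBS/PM arrays overlapped the controls, and the OVA/PM arrays lay above both single exposures. Its OVA/PM difference from PBS/PBS was 0.39 (SE 0.16) and did not pass (adjusted p = 0.13 from limma).

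Socs1, the inhibitor that acts behind interferon receptors, stayed below the level on every array and was not tested. Its probe set read 1.60 to 1.64 in PBS/PBS and 1.62 to 1.64 in PBS/PM. OVA/PBS replicate 1 at 2.34 and OVA/PM replicate 1 at 2.88 were the 2 highest readings, and the other arrays of those groups read 1.63 to 1.69.

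**Figure D2:**
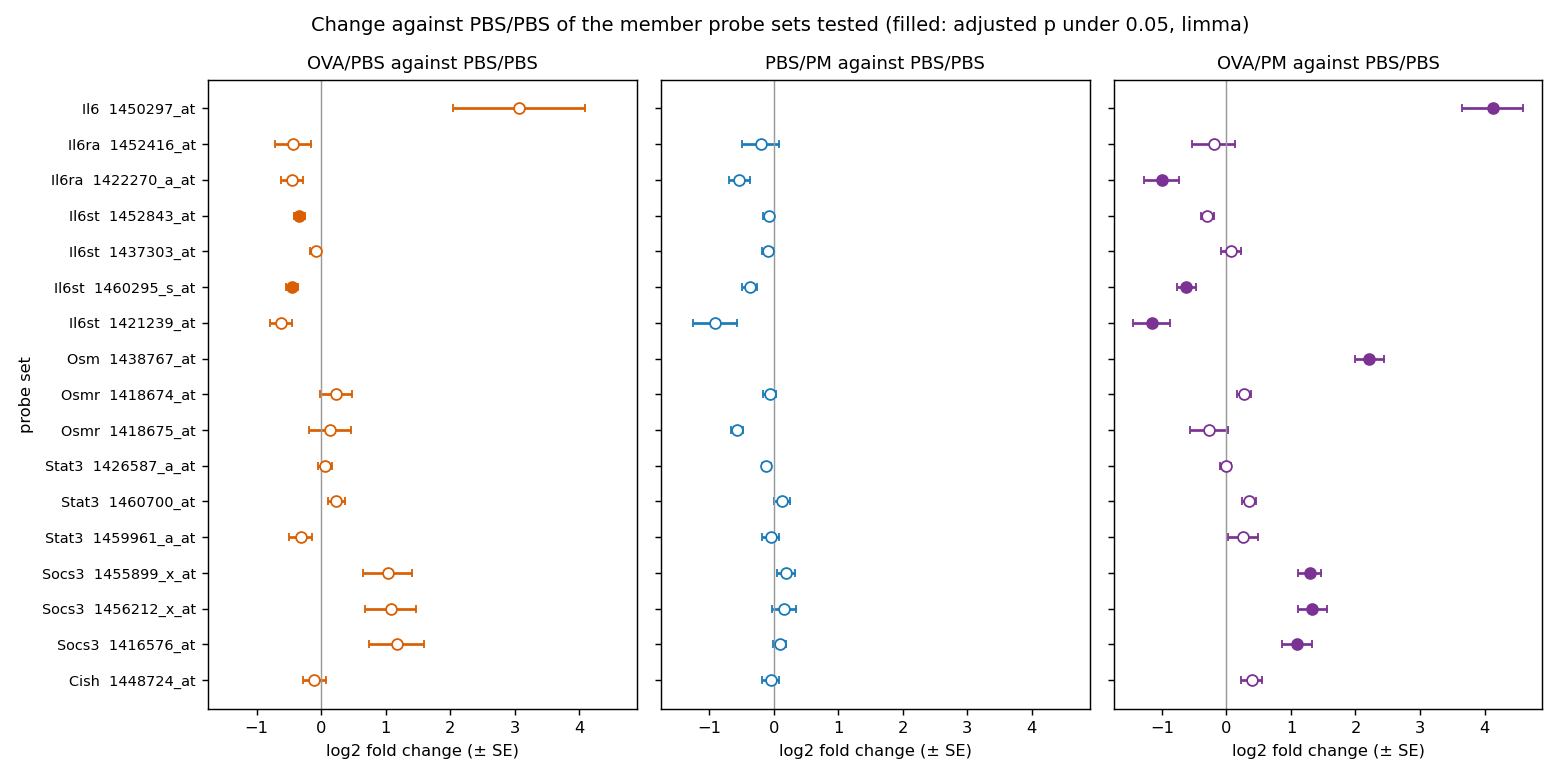
Log2 difference from PBS/PBS with its SE (horizontal axes, shared) for each member probe set tested, in OVA/PBS, PBS/PM and OVA/PM; filled points passed at an adjusted p under 0.05. In OVA/PM 8 points are filled, in OVA/PBS 2 and in PBS/PM 0, and the 3 comparisons use the same PBS/PBS arrays.

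In OVA/PBS mice Il6 and Socs3 read high in replicates 1 and 3 and near the controls in replicate 2. Of 16 member probe sets tested, 2 passed, both lower and both of Il6st, which was 12.5% of those tested against 19.2% of all probe sets (10.5% lower). Another 6 had an unadjusted p under 0.05 without passing, among them Il6 and all 3 probe sets of Socs3, which made 8 of 16 at that threshold beside 38.8% of all probe sets. Il6 entered this fit only through the OVA/PBS arrays, where its mean was higher, so the count is a description and not a test. Of the 10 leading probe sets, 7 (Il6, Osm, Osmr, Lif, Stat3, Socs1 and Socs3) had their highest OVA/PBS reading in replicate 1 and their lowest in replicate 2. Socs1 lay under the level there, and its replicates 2 and 3 hardly differed, at 1.63 and 1.66. The share of all probe sets with this order was not counted, so the 7 are not shown to be a trait of the family. Within OVA/PBS Il6 spanned 3.83 log2 units, against 0.18 in OVA/PM. Without replicate 2, Il6 was 4.11 higher and Socs3 1.44 higher than in PBS/PBS, and both passed (adjusted p = 0.0202 and 0.0167 from limma). Of the 6 cases with 1 array left out, this was the only case in which either passed. In the others the differences went down to 2.19 and 0.68, and adjusted p up to 0.205 and 0.235 from limma.

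Replicate 2 of OVA/PBS stood apart beyond the family. The 2449 probe sets that rose in OVA/PM lay 0.92, 0.55 and 0.79 above the PBS/PBS mean in OVA/PBS replicates 1, 2 and 3 (medians), and 0.87 to 0.93 above it in the OVA/PM arrays. They were picked by their rise in those OVA/PM arrays, so the high level there follows from the choice. Marker lists of neutrophils averaged 9.11, 6.81 and 7.69 in OVA/PBS replicates 1, 2 and 3, and those of monocytes and macrophages 11.67, 10.98 and 11.54. Both lists were thus highest in replicate 1 and lowest in replicate 2, like Il6, Osm and Socs3. T cell markers, at 8.21, 8.54 and 8.09, and endothelial markers, at 11.92, 12.09 and 11.69, were instead highest in replicate 2. Over all arrays the neutrophil list was highest in PBS/PBS replicate 3, at 9.41, where Il6 read 4.21 and Osm 3.85. The part of these cell types in the spread within OVA/PBS was not tested.

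**Figure D3:**
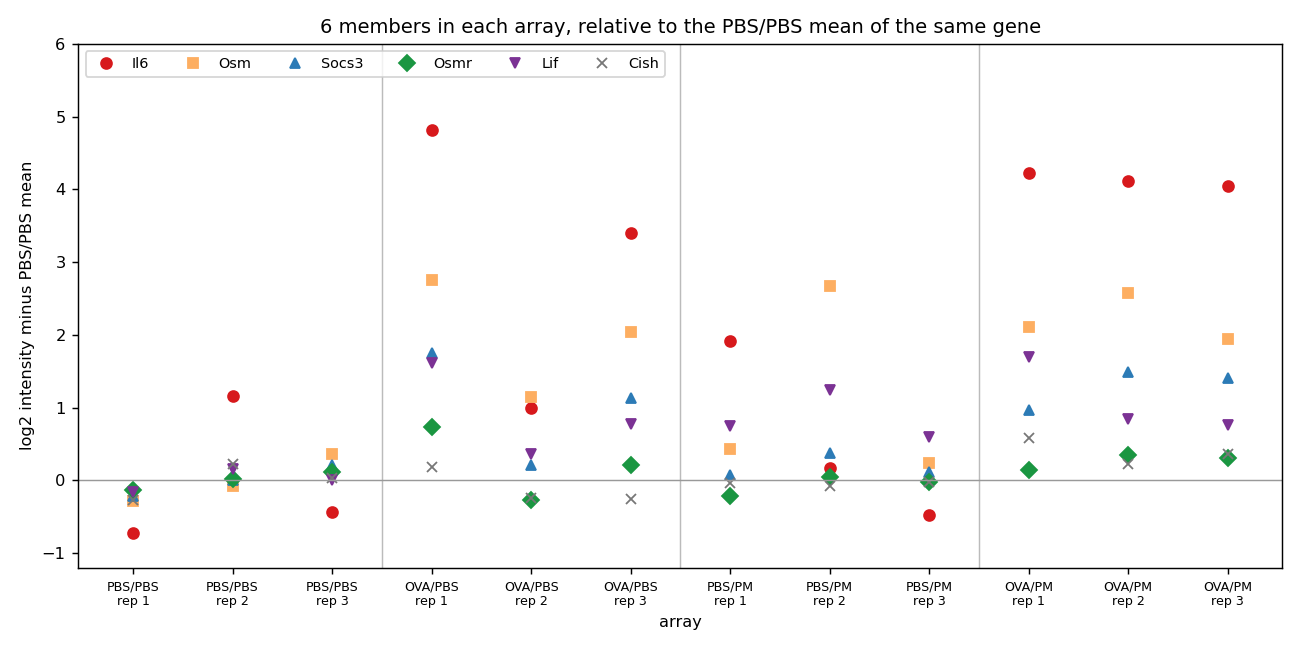
Log2 intensity of 6 members in each of the 12 arrays, minus the PBS/PBS mean of the same gene (vertical axis), grouped by exposure along the horizontal axis. Il6, Osm, Socs3, Osmr and Lif are lowest in OVA/PBS replicate 2 among the OVA/PBS arrays, and Osm is high in PBS/PM replicate 2.

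In PBS/PM mice no member passed against PBS/PBS: 15 probe sets in 6 genes were tested, and 0 were called by limma and 0 by SAM, against 0.0719% of all probe sets by limma and 0.175% by SAM. At an unadjusted p under 0.05 there were 4 members, all lower, from Osmr, Il6ra and Il6st, beside 8.14% of all probe sets. The arrays of PBS/PM and PBS/PBS did not overlap for 5 member probe sets, all lower in PBS/PM, against 7.1% of all probe sets tested. Over the 15, the median difference was -0.08, with 0.01 over all probe sets.

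Adding PM to OVA-exposed lungs and adding OVA to PM-exposed lungs were compared directly. Between OVA/PM and OVA/PBS 0 of 17 member probe sets passed by limma, 0 by SAM, and 2 had an unadjusted p under 0.05 (Cish and the Stat3 probe set 1459961_a_at). Of all probe sets 0.13% passed by limma, 0.407% by SAM and 8.78% had an unadjusted p under 0.05, a share to which 2 of 17 lay near. Cish was the 1 member whose arrays did not overlap there, where 8.57% of all probe sets lay above without overlap, and it was 0.50 higher in OVA/PM (SE 0.16, adjusted p = 0.497 from limma). Il6 differed by 1.06 (SE 0.88) between these groups and Socs3 by 0.25 (SE 0.38), with overlapping arrays, so neither a difference nor its absence was shown.

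Against PBS/PM, OVA/PM lungs had higher Il6 and Socs3. Of 17 member probe sets, 4 in 2 genes passed, all higher, which was 23.5% against 12.9% of all probe sets (7.13% higher). Il6 and Osm entered this fit only through the OVA/PM arrays, where they were high, so these counts too are a description and not a test. Il6 was at least 9.84-fold higher, since only 1 PBS/PM array reached the level (fitted log2 difference 3.59, SE 0.56, adjusted p = 0.0118 from limma). Socs3 was 2.14-fold higher by its leading probe set (log2 difference 1.10, SE 0.17, adjusted p = 0.0106 from limma), and its other probe sets were 1.18 and 1.0 higher and passed too. With 1 array left out, the Socs3 probe set 1416576_at lost this call in 4 of 6 cases and 1456212_x_at in 1 of 6. The former also lost it without the filter (adjusted p = 0.0959 from limma) and in the fit of all 4 groups (0.0886). Cish was 0.44 higher (SE 0.11) and narrowly missed (adjusted p = 0.0523 from limma), with arrays that did not overlap. It passed there with the filter at the 75th percentile (adjusted p = 0.0243 from limma), with 16 added to the linear values (0.0469), without OVA/PM replicate 2 (0.0483) and by SAM (0.019), and its adjusted p reached 0.144 without PBS/PM replicate 2. Osm was 1.10 higher (SE 0.63, adjusted p = 0.3 from limma), and without PBS/PM replicate 2 the difference was 1.88 and passed (adjusted p = 0.0123 from limma). In the other cases with 1 array left out Osm did not pass, with adjusted p up to 0.584 from limma.

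OVA/PBS and PBS/PM differed in 0 of 16 member probe sets tested by limma (3 at an unadjusted p under 0.05, and 1 called by SAM), against 5.2% of all probe sets by limma, 30.9% at an unadjusted p under 0.05 and 27.9% by SAM. Those 5.2% were 1165 probe sets, which became 3587 without OVA/PBS replicate 2 and 4 to 78 without any 1 of the other 5 arrays. Il6 was 2.53 higher in OVA/PBS (SE 1.07, adjusted p = 0.167 from limma) and Socs3 0.85 higher (SE 0.37, adjusted p = 0.18 from limma). Here too Il6 entered the fit only through the OVA/PBS arrays. The order of the group means was the same for Il6 and the leading probe set of Socs3, rising from PBS/PBS through PBS/PM and OVA/PBS to OVA/PM, and each neighbour in that order overlapped the next. The Socs3 probe set 1416576_at departed from it, with 9.51 in OVA/PBS and 9.43 in OVA/PM, and its OVA/PBS arrays lay above those of PBS/PM without overlap. The interaction of both exposures, the difference between the effect of PM in OVA-exposed and in naive lungs, passed for 0 of 17 members by limma, against 0.0264% of all probe sets, and 1 member, Cish, had an unadjusted p under 0.05, beside 6.22% of all probe sets. For Il6 it was 0.52 (SE 1.28) and for Socs3 0.06 (SE 0.45).

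The remaining genes of the pathway were counted by list, with 1 probe set per gene, the one of highest mean. Beside these counts stand the shares of all probe sets, of which 10.9% were higher and 10.9% lower in OVA/PM, 8.68% and 10.5% in OVA/PBS, and 0.0719% passed in PBS/PM. Among other ligands of the family, 5 of 8 genes had a probe set and 3 were tested. Ebi3, the shared subunit of IL-27 and IL-35, rose in OVA/PM by at least 2.32 with the level as a floor for the controls (fitted difference 2.42, SE 0.22, adjusted p = 0.00155 from limma) and rose in OVA/PBS too. In both fits Ebi3 entered only through the exposed arrays, where it was high. Clcf1 and Ctf1 did not pass, at 0.35 and -0.23 in OVA/PM. Of the other receptors, Lifr, which receives LIF together with gp130, fell by 0.52 in OVA/PM (SE 0.12, adjusted p = 0.0267 from limma), and Il27ra was 0.52 higher without passing (adjusted p = 0.192 from limma). The median of the 3 ligands tested was 0.35, and of the 2 receptors 0.00, beside -0.03 over all probe sets.

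JAK kinases and STAT factors other than Stat3 rose in part. In OVA/PM 4 of 9 tested genes rose and 0 fell (median 0.41), in OVA/PBS 1 rose, and in PBS/PM 0 of 8 passed. Stat4, which relays IL-12, was at least 1.26 higher in OVA/PM by the same floor and Stat2, a partner in interferon signaling, 1.14 higher (adjusted p = 0.0413 and 0.0332 from limma). Jak1 and Stat5b did not pass, at 0.01 and -0.18.

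Most of the other negative regulators did not pass. Of 12 genes, 2 rose in OVA/PM, the phosphatases Ptpn2 (1.07 higher) and Ptpn6 (1.10 higher), which remove phosphate from JAK and STAT proteins, with adjusted p = 0.00604 and 0.0319 from limma. Pias1 and Pias3, inhibitors of activated STAT proteins, lay at -0.32 and -0.26 without passing in OVA/PM. In OVA/PBS 2 genes rose, Ptpn2 and Ptpn6, and 2 fell, Pias1 and Pias3. None of Socs2, Socs4, Socs5, Socs6 and Socs7 passed in OVA/PM or OVA/PBS, with OVA/PM differences from -0.22 to 0.17. The median over the list was -0.10 in OVA/PM.

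Known targets of IL-6 and STAT3 included large rises. Of 21 genes, 18 were tested in OVA/PM, where 8 rose and 0 fell (median 0.51 against -0.03 over all probe sets). OVA/PBS had 6 higher and 1 lower (median 0.53), and PBS/PM 0 of 17. Saa3, an acute phase protein made in the lung, averaged 6.97 in PBS/PBS and 14.05 in OVA/PM (7.08 higher, SE 0.28, adjusted p = 8.78e-05 from limma). Timp1, an inhibitor of matrix proteases, lay under the level in all PBS/PBS arrays and rose by at least 4.20 against it (adjusted p = 0.000399 from limma). In OVA/PM and OVA/PBS, Timp1 thus entered the fit against PBS/PBS only through the exposed arrays, where it was high. Cebpd and the haptoglobin gene Hp did not pass in OVA/PM, at -0.34 and -0.21, and Cebpd was the gene that fell in OVA/PBS.

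Receptors that act through STAT5 were listed beside Cish. Of 12 genes 9 had a probe set and 7 were tested, of which 4 rose and 1 fell in OVA/PM as in OVA/PBS. Il7r, the IL-7 receptor chain of lymphocytes, rose by 2.52 and Csf2rb, the shared chain of the IL-3, IL-5 and GM-CSF receptors, by 2.20 in OVA/PM (adjusted p = 0.00259 and 0.0017 from limma). Ghr, the growth hormone receptor, fell by 0.41 (adjusted p = 0.0289 from limma), and Il3ra lay at -0.80 without passing. The median was 0.89 in OVA/PM.

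All 11 listed targets of interferon gamma rose in OVA/PM (median 2.10), 7 of 11 rose in OVA/PBS (median 2.05), and 0 of 9 passed in PBS/PM, where the median was nevertheless 1.03 against 0.01 over all probe sets. Of the 11, 2 entered the fit against PBS/PBS only through the exposed arrays, where they were high. These were the chemokine genes Cxcl9 and Cxcl10, at least 5.35 and 5.69 higher in OVA/PM against the level, while Irf1 and Psmb8 were 0.87 and 1.24 higher (adjusted p between 0.000222 and 0.0169 from limma).

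Likeness of pattern was measured as the root mean square difference over the 12 arrays, after each gene was centred on its PBS/PBS mean, among 11406 genes. Nearest to Socs3, whose own departure from the PBS/PBS mean was 0.90, were Tnfaip3 (0.131), an inhibitor of NF-kB, the metal transporter Slc39a14 (0.165) and the cytokine gene Csf1 (0.172). Nearest to Osm (own departure 1.72) were Irgm1 (0.340), Gm4951 (0.381) and Gbp3 (0.386), of which Irgm1 and Gbp3 are also in the list of interferon gamma targets. Il6 had looser neighbours against its own 2.78, namely Cst7 (0.807), the neutrophil chemokine gene Cxcl1 (0.825) and Dcstamp (0.850). For Cish, with a departure of 0.26, the matches Wdr5b (0.143), Slc1a1 (0.152) and Mapk11 (0.159) were loose relative to that departure.

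Marker lists of macrophages and T cells were higher in OVA/PBS and OVA/PM than in PBS/PBS. The monocyte and macrophage list averaged 9.45 to 9.95 in PBS/PBS, 10.98 to 11.67 in OVA/PBS, 9.56 to 10.24 in PBS/PM and 10.995 to 11.68 in OVA/PM, and 7 of its 10 genes rose in OVA/PM, 6 in OVA/PBS and 0 in PBS/PM. T cell markers averaged 6.16 to 7.34, 8.09 to 8.54, 6.91 to 7.16 and 8.21 to 8.61 in the same order. In OVA/PM 5 of 7 rose. Cd5 and Icos entered that fit only through the OVA/PM arrays, where they were high. Of all probe sets, 10.9% were higher in OVA/PM and 8.68% in OVA/PBS, and 0.0719% passed in PBS/PM. OVA/PBS and OVA/PM are also the groups in which Il6, Osm and Socs3 averaged highest. The part of monocytes, macrophages and T cells in the result was not tested.

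Endothelial markers were lower in OVA/PBS and OVA/PM, as were Lifr and the leading probe set of Il6st. The endothelial list averaged 12.37 to 12.46 in PBS/PBS, 11.69 to 12.09 in OVA/PBS, 12.29 to 12.39 in PBS/PM and 11.70 to 11.84 in OVA/PM. In OVA/PM 5 of 6 genes fell, in OVA/PBS 3 and in PBS/PM 0. Of all probe sets, 10.9% were lower in OVA/PM and 10.5% in OVA/PBS. Striated muscle markers averaged 10.25 to 12.11 in the other 3 groups but 7.47 to 9.81 in OVA/PM, where 5 of 8 fell. Neutrophil lists overlapped between PBS/PBS, 6.60 to 9.41, and OVA/PM, 7.15 to 8.87, while 4 of 5 eosinophil markers and the neutrophil enzyme gene Mpo lay under the level in all 12 arrays. The part of these cells in the member results was not tested.

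**Figure D4:**
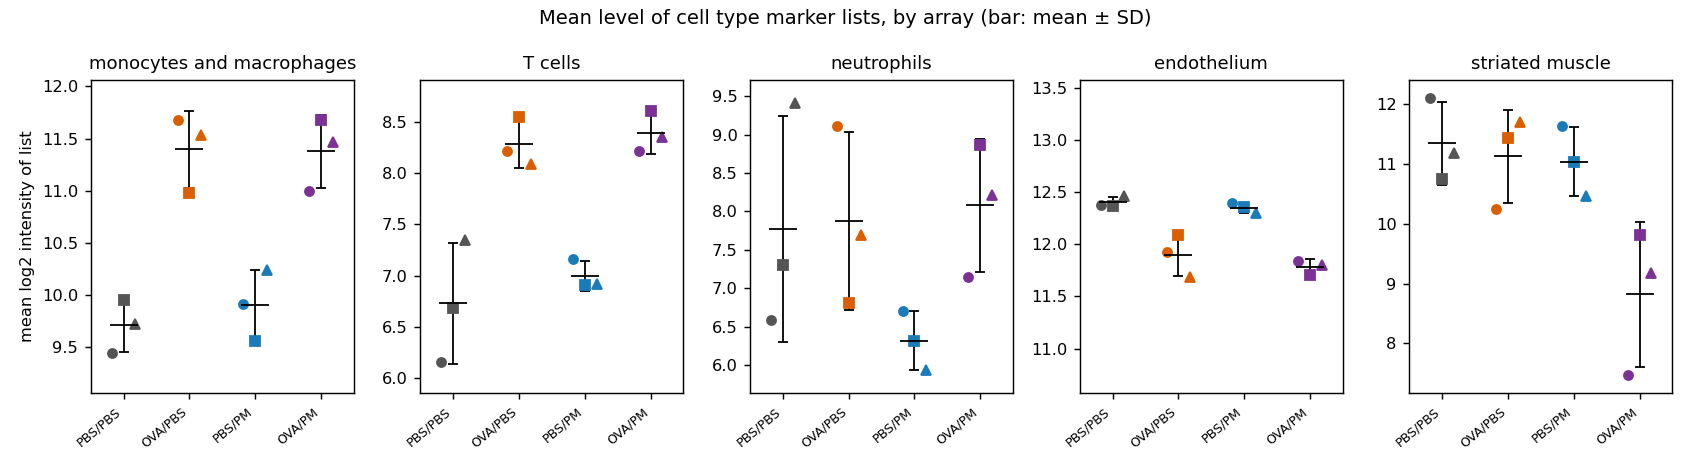
Mean log2 intensity of 5 cell type marker lists (vertical axes, which differ between panels) in the 3 arrays of each group, with the group mean and SD as bars. Macrophage and T cell lists were higher and the endothelial list lower in OVA/PBS and OVA/PM than in PBS/PBS, and the muscle list was lowest in OVA/PM.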

How the data were processed

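Lung RNA of 12 mice was measured on Affymetrix expression arrays, in 4 groups of 3. The authors deposited log2 intensities of 45101 probe sets, computed with GCRMA (the processing notes also name MAS5; versions are not given in the sources used here). Groups came from the sample titles, since every sample's description names a control animal. No 2 of the 66 pairs of arrays were identical. Of the probe sets 34958 had 1 symbol, 932 several and 9211 none in the platform annotation.

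On the deposited log2 values limma 3.58.1 (R 4.3.3) compared pairs of groups, and tested the interaction in a fit of all 12 arrays, over probe sets that reached 4.93, the overall median, in all 3 arrays of a compared group. Spiked controls were left out. SAM was run in code written here with 20 relabelings. For groups of 3 the smallest exact permutation p is 0.1, so p-values rest on limma. Scripts were tested on simulated data. Folds are powers of 2 of mean log2 differences, and a lower bound where an array of the lower group missed the level, which then took its place. Named were all member probe sets, the 3 nearest genes in pattern for Il6, Osm, Socs3 and Cish, and up to 2 highest and 2 lowest tested genes per list in OVA/PM. Other genes in a list were named after their values were seen. The members and gene lists were chosen with earlier results of these data known. Alternatives were a filter at 8.65 (the 75th percentile) or none, 16 added to linear values, centred arrays, a fit of all 4 groups, the replicate number as a block, SAM, 1 array left out and, chosen after seeing the data, the names OVA and PM exchanged. The number of arrays limits the precision.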

Additional observations from a re-analysis of the deposited data

Results flagged for a closer look

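Cish (1448724_at) was singled out because its 3 PBS/PM arrays lay below the PBS/PBS mean while its 3 OVA/PM arrays lay above the OVA/PBS mean. Neither difference passed. The difference was -0.0507 on the log2 scale between PBS/PM and PBS/PBS, where the arrays overlapped, and 0.498 between OVA/PM and OVA/PBS, where they did not. The gap between these effects, 0.549, was tested as the interaction and did not pass (adjusted p = 0.751 from limma).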

How the results depend on the processing

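Across settings, the calls of Il6, Osm and 2 probe sets of Socs3 in OVA/PM against PBS/PBS were kept wherever they were tested. So were the calls of Il6 and the leading Socs3 probe set in OVA/PM against PBS/PM. These settings kept the labels as given, and Osm lay under the filter at the 75th percentile and was not tested there. Members called in OVA/PBS against PBS/PBS went from 2 to 1 with centred arrays, 6 in the fit of all 4 groups and 8 by SAM, and ranged from 0 to 6 with 1 array left out. In OVA/PM against PBS/PBS 8 became 4 without the filter, where more probe sets were tested, and ranged from 4 to 8 with 1 array left out. In OVA/PM against PBS/PM 4 became 7 by SAM and ranged from 2 to 6. In OVA/PBS against PBS/PM 0 became 1 with the filter at the 75th percentile, in the fit of all 4 groups and by SAM, and ranged from 0 to 5, the highest without OVA/PBS replicate 2. With the names OVA and PM exchanged, members called were 0 in OVA/PBS and 2 in PBS/PM against PBS/PBS, and 4 and 0 in OVA/PM against OVA/PBS and against PBS/PM. In PBS/PM against PBS/PBS, in OVA/PM against OVA/PBS and in the interaction, 0 members passed in every setting that kept the labels. Il6 and Socs3 passed in OVA/PBS against PBS/PBS in the fit of all 4 groups (adjusted p = 0.0322 and 0.0371 from limma) and by SAM.

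Cish passed by SAM in OVA/PM against PBS/PBS (adjusted p = 0.0396), where limma gave 0.0815 to 0.301 over the settings run. Against PBS/PM it passed in 3 of 7 other settings and in 1 of 6 cases with 1 array left out.

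Some small differences turned direction. With 1 array left out Cish ranged from -0.25 to 0.012 in OVA/PBS against PBS/PBS, positive only without PBS/PBS replicate 2, and from -0.20 to 0.021 in OVA/PBS against PBS/PM, positive without OVA/PBS replicate 2 or 3. In PBS/PM against PBS/PBS it was 0.013 with centred arrays and, at the upper end with 1 array left out, 0.065 without PBS/PBS replicate 2. The differences of OVA/PM from OVA/PBS ranged from -0.19 to 0.62 for Osm and from -0.16 to 0.61 for Socs3, negative only without OVA/PBS replicate 2. The cause was not tested.

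The replicate number does not pair the arrays: of 18 pairs with the same number, 3 deviated together with a correlation above 0.1 (median -0.06), and 2 of 12 arrays were closest to one of their own number. With the replicate block, members called in OVA/PBS against PBS/PBS went from 2 to 0, and all probe sets called from 4326 to 89. The block gave 7 in OVA/PM against PBS/PBS and 4 against PBS/PM. Over all probe sets, no filter gave 2432 in OVA/PBS against PBS/PBS and 4 in place of 1165 in OVA/PBS against PBS/PM, and SAM called 11036 in place of 4326 and 9636 in place of 4899 in OVA/PBS and OVA/PM against PBS/PBS. Leaving out 1 array gave 407 to 5284 and 2188 to 4491 there. In PBS/PM against PBS/PBS 16 became 6 without the filter, 38 in the fit of all 4 groups, 4 with the block and 39 by SAM, and OVA/PM against PBS/PM gave 5555 by SAM and 1377 with the block in place of 2894. Lif and Socs1 lay too near or under the level for a test, which limits what can be said of them.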

Other observations

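Tissue markers outside the family showed a mixed picture. In OVA/PM, 2 of 6 fibroblast markers rose, Col1a1 by 1.5 and Col3a1 by 1.16 on the log2 scale (adjusted p = 0.0112 and 0.0121 from limma), and these collagen genes rose in OVA/PBS too. Of 5 alveolar type 2 markers tested, Sftpd, a collectin that binds microbes, rose by 0.51 in OVA/PM and Sftpb, needed for the surfactant film, fell by 0.47 (adjusted p = 0.0264 and 0.0146 from limma). The club cell enzyme gene Cyp2f2 fell by 0.55 (adjusted p = 0.00718 from limma), while Scgb1a1 and Scgb3a2 did not pass. In PBS/PM 0 markers of these 3 lists passed by limma. These genes were named after their values were seen.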
